A study of Mus musculus with 2 samples.

Results

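The major histocompatibility (H2) genes and their antigen presentation partners were followed through the postpartum brain arrays of the TDAG51 knockout study. This set of genes was chosen with earlier results of these data known. All probes whose gene name begins with H2-, together with those of B2m, Tap1, Tap2, Tapbp and Cd74, were taken from both scanner files by name. This gave 63 probes for 41 gene names, 36 of them H2- names, among 40981 probes and 27962 gene names on the array. Brain RNA of 3 genotypes was compared on 2 two-colour arrays of the same slide: TDAG51 KO (TDAG51-/-), TDAG51 wild-type (WT, TDAG51+/+) and TDAG51 KO with a TDAG51 transgene (KO Tg, TDAG51-/-Tg2). All were labelled C57BL/6J females 8 weeks of age on postpartum day 0. Backcrossing to C57BL/6J is stated for the transgenic line, while the strain of the cells in which the gene was deleted is not given in the sources used here. The KO Tg sample lacks the endogenous gene as the KO does and carries the transgene under the BAI1-AP4 promoter, which is active mainly in cerebral cortex and hippocampus, in a line bred from 1 founder. KO was in Cy3 on both arrays, beside WT in Cy5 on one (called the first array) and KO Tg in Cy5 on the other (the second), and values are given in that order. Each genotype pair has 1 array, no dye was swapped, and neither the number of dams in a sample nor whether both KO samples were the same RNA is given. No test was therefore possible, and every value below is a single measurement.

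The H2 complex lies on chromosome 17 of the mouse and is among the most polymorphic parts of its genome. Class I molecules pair a heavy chain with B2m and show peptides from inside the cell, delivered by the Tap1 and Tap2 transporter and loaded with the help of Tapbp, to CD8 T cells. Class II molecules, made mainly by microglia, macrophages, dendritic cells and B cells, show peptides from outside the cell to CD4 T cells, and Cd74 (the invariant chain) and the H2-DM and H2-O pairs control their loading. In the brain both are low at rest and rise under interferon. The C57BL/6 strain carries the b haplotype, in which H2-Ea is not expressed for want of its promoter. A sample of another haplotype could therefore turn single probes on or off, and each probe was read for such a difference.

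Values are normalized intensities, which contain an added offset of 50, so that probes well above background in no channel have a median of 64.2 to 64.5. A probe was read in a comparison when the scanner marked it well above background in at least 1 of the 2 channels, and it was called when the channels differed 2-fold or more, which is 1 or more on the log2 scale. The difference between both KO channels across the arrays served as a yardstick. This difference holds that of the arrays and any between the KO samples, in Cy3 alone. Over all probes it passed 2-fold for 0.362% of 34207 probes, with a robust SD of 0.15 on the log2 scale. The TDAG51 probe read 397.5 in KO against 6861.9 in WT on the first array, and was not well above background in either channel of the second, with 57.4 in KO and 63.2 in KO Tg. Between both KO channels that probe differed by -2.79 on the log2 scale. Whether it covers the transgene is not given.

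Some of these probes resemble each other, and their sequences, 60 bases each, show how far they overlap. The probes that were called below are these, shown because the largest differences rest on them. The H2-T10 probe is given by its first 30 bases and beside the H2-T22 probe.
H2-Ke6: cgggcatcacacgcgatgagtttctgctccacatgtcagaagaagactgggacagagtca
H2-DMb2: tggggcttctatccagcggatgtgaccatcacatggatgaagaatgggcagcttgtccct
H2-T10: gggacatttaatcaggtcaaattgggatca
H2-T22: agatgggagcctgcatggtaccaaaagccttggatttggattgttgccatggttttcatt

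Of 1891 probe pairs, Cd74 left aside, 7 overlapped by 20 bases or more with over 80% of the bases equal, 5 of them between different gene names. The H2-T23 and H2-Q7 probes had the most equal bases, 50 of 59 overlapping, with an unbroken run of 28. The capitals mark the equal bases.
H2-T23: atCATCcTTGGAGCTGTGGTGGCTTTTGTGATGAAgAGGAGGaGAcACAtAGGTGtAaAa
H2-Q7: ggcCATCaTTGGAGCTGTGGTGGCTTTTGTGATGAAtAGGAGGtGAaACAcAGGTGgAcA
The H2-Q5 probe and 1 of the H2-Q10 probes had 35 bases in common without a difference, in capitals here.
H2-Q5: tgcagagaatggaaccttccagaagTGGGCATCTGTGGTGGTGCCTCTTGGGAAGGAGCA
H2-Q10: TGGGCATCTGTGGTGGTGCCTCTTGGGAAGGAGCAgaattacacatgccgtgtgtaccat
A pair of H2-Ab1 probes reads the same stretch of the gene in unlike versions, with 29 of 31 overlapping bases equal. The probe made from NM_207105 and the one made from BC010322, a clone that the files give no genome position, differed by T5A and T20A, counted from the first overlapping base with the NM_207105 base first. The capitals mark these bases.
H2-Ab1 of NM_207105: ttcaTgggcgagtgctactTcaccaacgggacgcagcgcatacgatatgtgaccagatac
H2-Ab1 of BC010322: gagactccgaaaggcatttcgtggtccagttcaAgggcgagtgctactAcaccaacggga
The H2-Ea probe is shown because the gene is known to be silent in C57BL/6.
H2-Ea: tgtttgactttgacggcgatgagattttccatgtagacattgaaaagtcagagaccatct

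Of the 63 probes, 47 were well above background in all 4 channels, 12 in none and 4 in some. All 5 class Ia probes (H2-K1 and H2-D1, the classical heavy chains) and all 7 of B2m, Tap1, Tap2 and Tapbp were above background in every channel. No probe carried the name H2-L. Among 33 class Ib probes (the nonclassical H2-Q, H2-T, H2-M, H2-Bl and H2-D4 names), 21 were above background in all channels and 10 in none. The 10 included the probes of H2-M1, H2-M9, H2-M11 and 5 of the 6 H2-M10 genes, which are known from the vomeronasal organ. The sixth, H2-M10.5, read 94.5 in KO and 110.9 in WT on the first array and was not above background on the second, with 67.4 in KO and 63.3 in KO Tg, so that it separated the arrays and not the genotypes. Among 8 class II probes (the alpha and beta chains H2-Aa, H2-Ab1, H2-Ea and H2-Eb1), 5 were above background throughout.

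**Figure D1:**
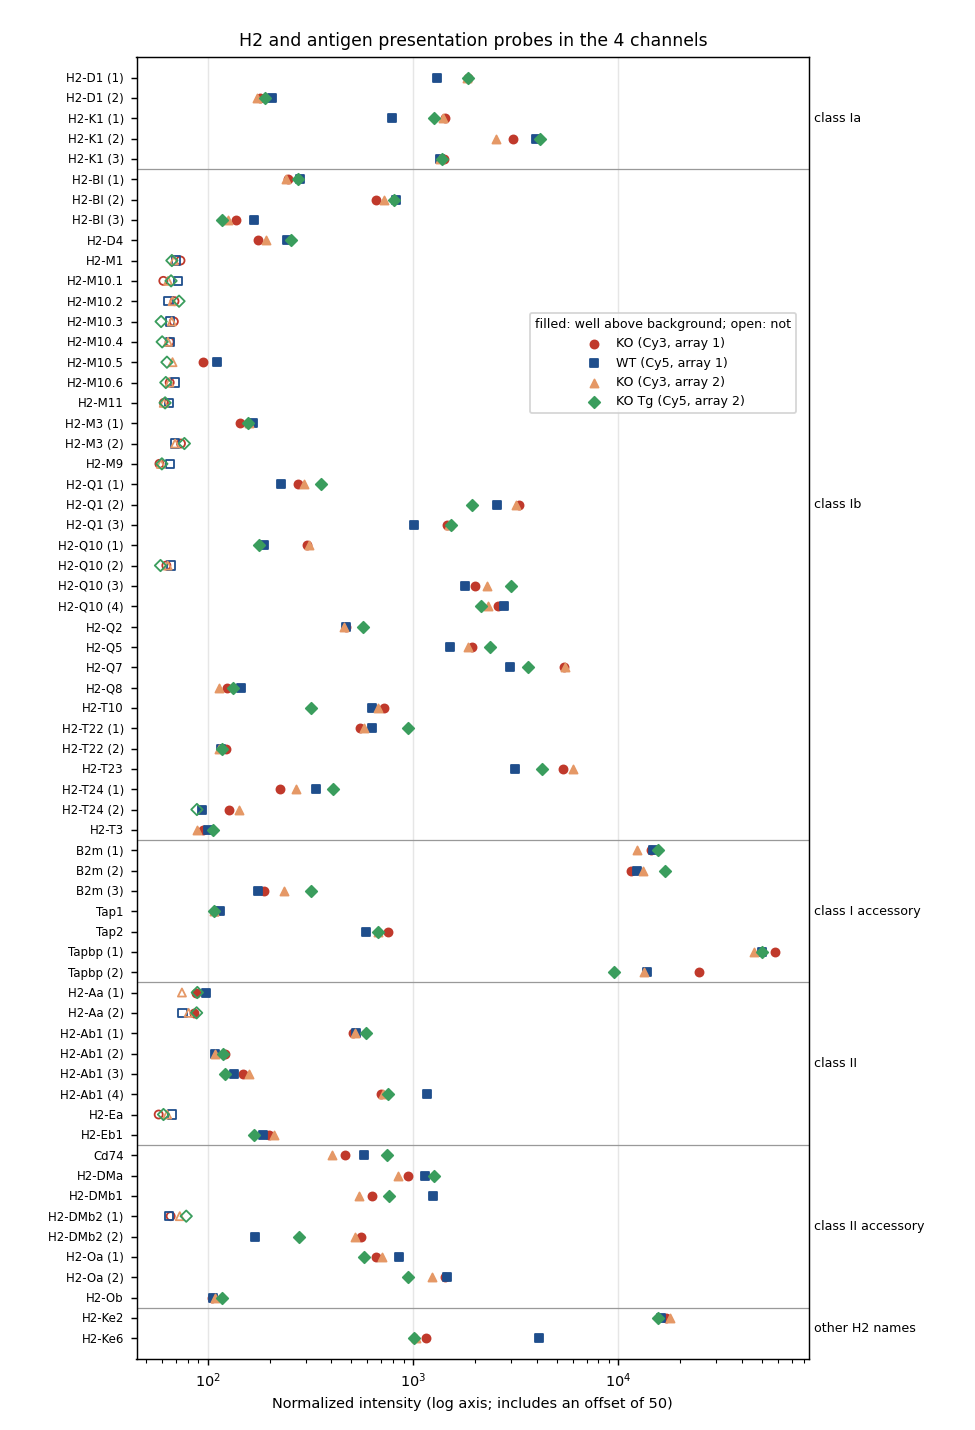
Normalized intensity (log axis) of the 63 probes in the 4 channels, grouped by family; a number in brackets tells probes of the same gene apart, filled symbols are well above background and open symbols are not. H2-Ke6 at the bottom is the probe with the widest gap, 4096.1 in WT against 1009.3 to 1159 in the other 3 channels, and most H2-M probes sit together near 64.

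No H2 or antigen presentation probe went from background to a clear signal between genotypes. The H2-Ea probe read 57.7 in KO and 67.2 in WT, then 63.5 in KO and 60.9 in KO Tg, and was not well above background in any. H2-Aa, the other class II alpha chain, was itself near background, between 74.9 and 97.9 at its brighter probe. An H2-Ea signal could thus be missed in any haplotype, so its absence does not tell haplotypes apart here. The H2-Ab1 version of NM_207105 read 121.2 in KO, 108.9 in WT, 108.6 in KO of the second array and 119.1 in KO Tg. The version of BC010322 read 149.1, 134.6, 158.6 and 122.0 in the same order. Both versions were dim and above background in all 4 channels, and neither was off in any sample. In KO over WT, 1 of 51 probes was well above background in only 1 of both channels, against 7.96% of all probes. In KO over KO Tg it was 1 of 48 against 9.28%, and in KO Tg over WT 3 of 50 against 9.76%. Between both KO channels it was 3 of 51 against 3.73%. These were probes of H2-Aa, H2-T24 and H2-M10.5 near the detection limit. The H2-T24 probe read 126.9 in KO and 93.5 in WT, then 142.5 in KO and 88.6 in KO Tg, and only KO Tg was not above background. None reached 2-fold when the dim channel was set at its detection floor, the condition met by 0.602%, 0.572% and 1.23% of all probes in the 3 comparisons and by 0.0906% between both KO channels.

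In KO over WT, 1 of the 51 probes read was called higher and 1 lower, 3.92% beside 9.33% of all 34525 probes read (4.91% higher and 4.42% lower). In KO over KO Tg, 1 of 48 was higher and 0 lower, 2.08% beside 8.58% of all probes (4.72% higher and 3.86% lower). In KO Tg over WT, taken from the Cy5 channels of both arrays, 0 of 50 were higher and 1 lower, 2.0% beside 7.9% of all probes (3.79% higher and 4.11% lower). Between both KO channels, 0 of 51 passed 2-fold. The median log2 ratio of the H2 and antigen presentation probes was -0.02 in KO over WT, -0.06 in KO over KO Tg and 0.02 in KO Tg over WT, and that of all probes 0.01, 0.01 and -0.01. The median size of the difference, without its sign, was 0.22, 0.30 and 0.26 for the H2 and antigen presentation probes, below 0.34, 0.33 and 0.29 for all probes. Among the 47 probes above background in all channels, KO was the highest of the 3 genotypes in 15, WT in 13 and KO Tg in 19. These are 31.9%, 27.7% and 40.4%, against 36.3%, 32.1% and 31.6% of all probes above background in all channels. The 3 levels spanned 2-fold or more in 4 of these 47, which is 8.51%, against 16.6% of all probes of that kind. The KO level here was the mean of both KO channels. The comparisons with KO share a genotype, and perhaps an RNA, so their values are given side by side and not as support for each other.

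**Figure D2:**
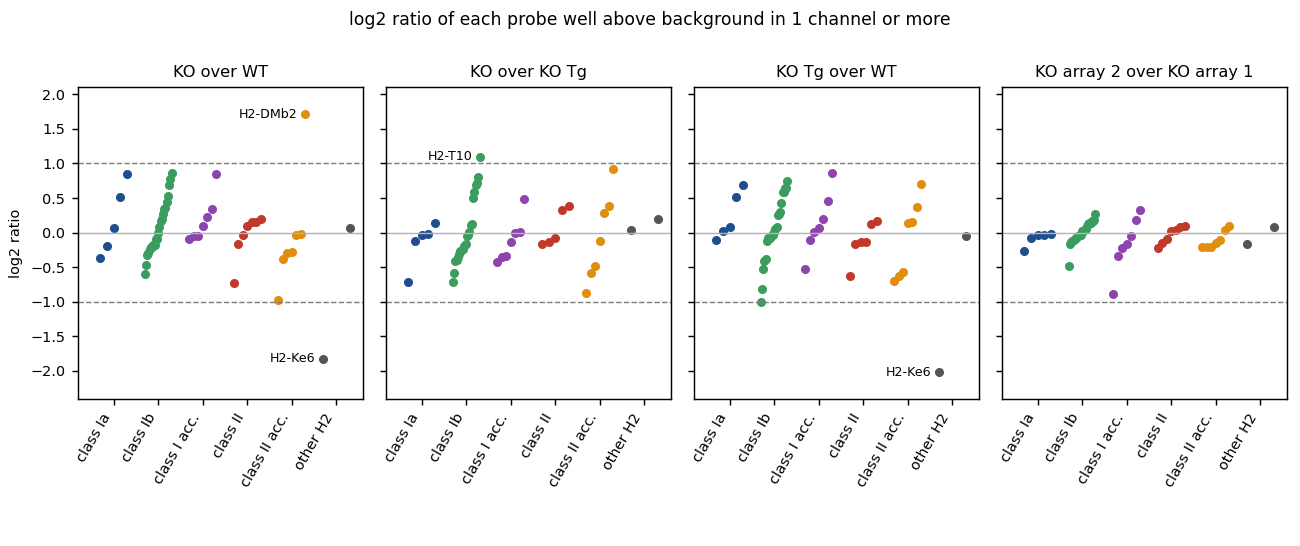
The log2 ratio of each H2 or antigen presentation probe read in KO over WT, KO over KO Tg, KO Tg over WT and between both KO channels, by family; the dashed lines mark 2-fold. Only H2-DMb2, H2-Ke6 and H2-T10 lie outside the lines, and no probe does in the panel of both KO channels.

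H2-Ke6 gave the widest difference. This gene, Hsd17b8 in current usage, sits within the complex but encodes a 17-beta-hydroxysteroid dehydrogenase that also takes part in mitochondrial fatty acid synthesis, and not an antigen presenting molecule. Its probe (NM_013543, chr17:32105860-32105919 on mm7) read 1159 in KO and 4096.1 in WT, then 1037.5 in KO and 1009.3 in KO Tg. WT was thus the high sample, and KO and KO Tg did not differ beyond the gap between both KO channels. The log2 ratio was -1.82 in KO over WT, a 3.53-fold lower level, 0.04 in KO over KO Tg and -2.02 in KO Tg over WT, with -0.16 between both KO channels. The array has 1 probe for it, printed 1 time. H2-Ke2, now Pfdn6, a subunit of the prefoldin chaperone, was the other gene of this kind, and lay between 15644.9 and 17908.2 in the 4 channels.

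The genes next to H2-Ke6 did not share its pattern. Slc39a7, a zinc transporter whose probe lies 0.911 kb away, differed by 0.35 in KO over WT and 0.00 in KO Tg over WT on the log2 scale. Ring1, a Polycomb group protein on the other side, gave 0.83 and 0.39 in KO over WT at its pair of probes. In KO Tg over WT they gave 1.04 and 0.79, so that 1 of them was called. Rxrb, the retinoid X receptor beta 9.728 kb away, was called higher at 1 probe, with 2.81 in KO over WT and 1.39 in KO Tg over WT. Its other probe gave -0.36 and 0.39. Over the 3.42 Mb of chromosome 17 from the first Tapbp to the last H2-M3 probe (chr17:32004181-35427193), 204 probes of other genes were present. Of those read, 20 of 180 (11.1%) were called in KO over WT, 13 of 183 (7.1%) in KO over KO Tg and 18 of 180 in KO Tg over WT. Elsewhere on chromosome 17 the shares were 9.45%, 6.9% and 7.15%. These differences in share were not tested. The WT-high pattern of H2-Ke6 did occur farther away in the span, in probes named after their values were seen. Of 176 probes of other genes read against WT in both KO and KO Tg, 6 (3.41%) were 2-fold or more below WT in both and 4 (2.27%) above it in both, against 1.85% and 0.751% of all probes. Both comparisons share the WT sample, and these shares were not tested either. The widest was the transcript ENSMUST00000015595, 803.85 kb away, with 96.6 in KO and 1327.1 in WT, then 69.3 in KO and 67.1 in KO Tg, where neither channel of the second array was above background. This probe, which is no H2 probe, was thus near background in every channel except WT. The other 5 were 2610110G12Rik, with 316.6 in KO, 1941.6 in WT and 383.7 in KO Tg, D17H6S53E, the lymphotoxin genes Lta and Ltb, and the olfactory receptor gene Olfr96. Further probes of 2610110G12Rik in the span did not share the pattern. The brightest read 2769.1 in KO, 2981.6 in WT and 2607.9 in KO Tg, and another 262.9, 294.3 and 230.0 in the same order. The 4 above WT in both were the called Rxrb probe, Prrt1 (1.34 and 1.27), NAP123925-1 (1.29 and 1.07) and Psors1c2 (1.18 and 1.04). These are log2 ratios in KO over WT and KO Tg over WT.

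**Figure D3:**
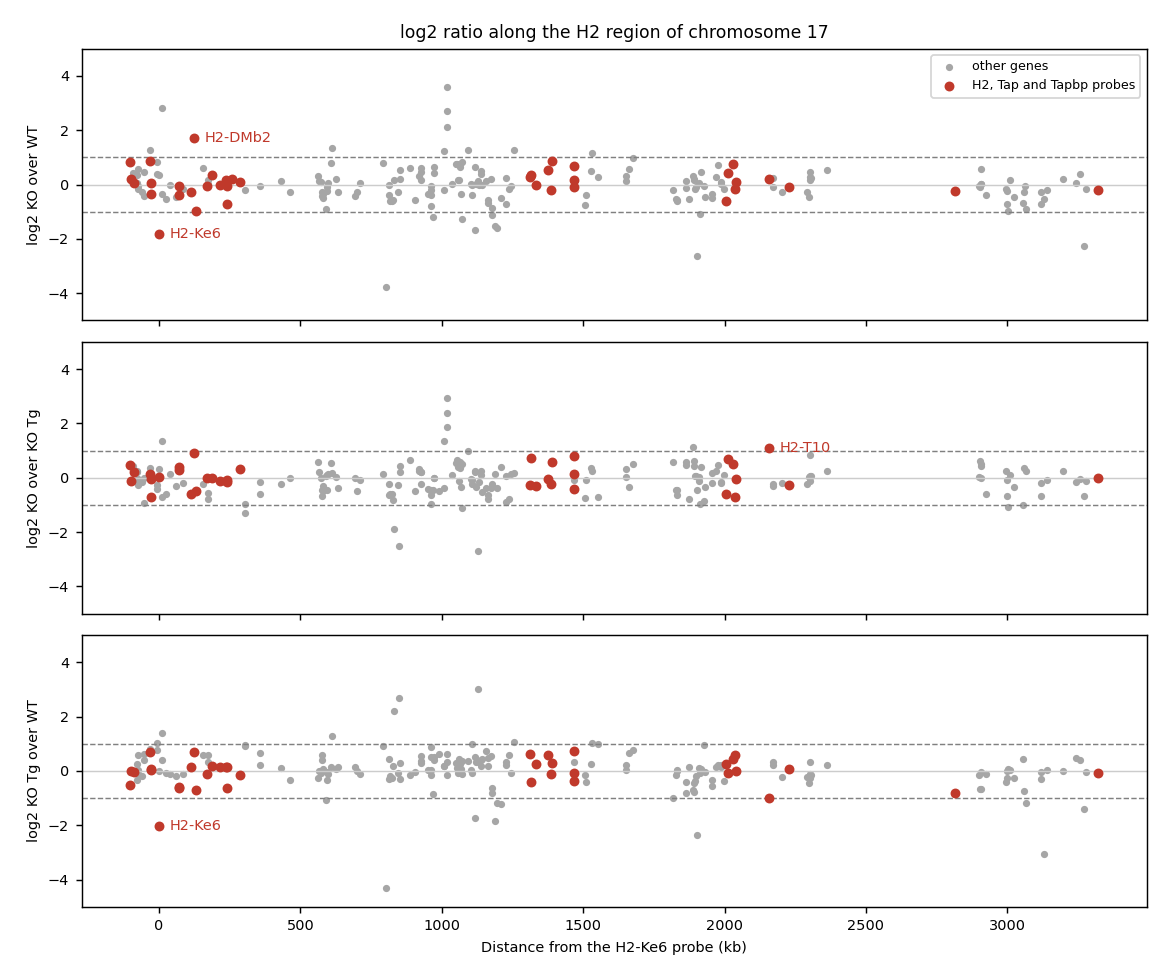
The log2 ratio of probes along the H2 region of chromosome 17 against the distance from the H2-Ke6 probe in kb, with H2, Tap and Tapbp probes in red and other genes in grey; the dashed lines mark 2-fold. Called red points are H2-Ke6 and H2-DMb2 at 0 and 123.057 kb and H2-T10 at 2156.443 kb, and most calls in the span belong to other genes.

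Among the genes that load class II molecules H2-DMb2 was called, in KO over WT. It and H2-DMb1 each encode a beta chain of H2-DM, which exchanges the invariant chain fragment for peptide. The H2-DMb2 probe (NM_010388, chr17:32228917-32228976) read 559.5 in KO and 170.5 in WT, then 521.5 in KO and 277.0 in KO Tg. KO was the high sample on both arrays. The log2 ratio was 1.71 in KO over WT, 0.91 in KO over KO Tg and 0.70 in KO Tg over WT, with -0.10 between both KO channels. Under the other scalings the KO over KO Tg ratio ran from 0.70 to 1.04. It passed 2-fold with offset 0 and with the scanner's and the deposited ratio. The files also list the H2-DMb1 transcript for this probe, and the other H2-DMb2 probe was at background in all 4 channels, between 65.1 and 78.6. The H2-DMb1 probe, just short of the threshold, read 630.9 in KO against 1244.2 in WT, and 545.3 in KO against 762.6 in KO Tg. Its log2 ratio was -0.98 in KO over WT and -0.48 in KO over KO Tg, and under the 5 other scalings the first was -1.16 to -1.01, past 2-fold.

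The other class II loading genes passed no threshold under the main scaling. Cd74 read 467.4 in KO and 575.4 in WT, then 404.6 in KO and 744.7 in KO Tg, which gave log2 ratios of -0.30 and -0.88. Under the other scalings its KO over KO Tg ratio ran from -1.10 to -0.92. It passed 2-fold without normalization and with the scanner's and the deposited ratio. H2-DMa, the alpha chain of H2-DM, gave -0.28 and -0.58. H2-Oa, which holds H2-DM in check, gave -0.04 and 0.38 at its brighter probe, and H2-Ob, its partner, stayed between 105.5 and 117.6. Of the 7 class II accessory probes read, 6 were below 0 in KO over WT and 4 in KO over KO Tg. Over all probes read, 16948 of 34525 and 16465 of 33731 were below 0 in these comparisons, and 4.42% and 3.86% were called lower. Of 11 microglia markers, all above background in every channel, 10 were below 0 in KO over WT, 1 of them 2-fold, and 11 in KO over KO Tg, 3 of them 2-fold, with median log2 ratios of -0.64 and -0.48. Their summed intensity was 26924 in KO and 38754 in WT, and 25598 in KO and 36880 in KO Tg. Those that differed most over the 3 comparisons were Cx3cr1 (-0.55, -1.53 and 1.30), Tmem119 (-0.93, -1.34 and 0.17), C1qa (-0.64, -1.16 and 0.46) and Csf1r (-1.11, -0.11 and -0.97). The last value of each is that of KO Tg over WT. The part of these cells in the class II values was not tested, and in whole brain RNA fewer cells of a type and less RNA per cell cannot be told apart.

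The class II chains themselves showed no call. The brightest H2-Ab1 probe read 701.5 in KO and 1165.4 in WT, then 715.9 in KO and 756.9 in KO Tg, so WT was the high sample. Its log2 ratio was -0.73 in KO over WT and -0.08 in KO over KO Tg. A second H2-Ab1 probe, with 9 usable spots on the array with WT and 8 on the other, did not show this. It gave -0.04 ± 0.08 (SD over 9 spots) in KO over WT and -0.17 ± 0.05 (8 spots) in KO over KO Tg. The brighter H2-Aa probe lay between 74.9 and 97.9, above background on the first array only. H2-Eb1 lay between 167.3 and 210.7, with log2 ratios of 0.10 and 0.33.

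No classical class I probe, H2-K1 or H2-D1 by name, was called. H2-K1 has 3 probes, whose log2 ratios in KO over WT were 0.85, 0.07 and -0.36, a range of 1.22. The first of these, at -31.4 kb from the H2-Ke6 probe, was printed 10 times on each array. It read 1423.6 in KO and 787.8 in WT, then 1395.2 in KO and 1265.1 in KO Tg, and WT was below KO in every one of its spots. The ratio was 0.85 ± 0.05 in KO over WT and 0.14 ± 0.06 in KO over KO Tg (SD over 10 spots). The brightest H2-K1 probe went the other way, with 3077.4 in KO and 3960.0 in WT, then 2547.3 in KO and 4174.2 in KO Tg, or -0.36 and -0.71. Spots of 1 array share the RNA and the labelling, so these SDs measure the printing and scanning alone. A probe without an H2- name, NAP123578-1, was not taken but lies between H2-K1 probes, at -31.058 kb from the H2-Ke6 probe. It read 6503.2 in KO and 2667.2 in WT, then 6118.0 in KO and 4711.9 in KO Tg. It was called higher in KO over WT, with a log2 ratio of 1.29. KO over KO Tg gave 0.38 and KO Tg over WT 0.82. WT was thus its low sample, and whether it reads H2-K1 was not tested. The sequences of the H2-K1 probes are shown because they read the gene at unlike places, the first by its first 30 bases and the others whole.
H2-K1, printed 10 times: tgaatgtaaccttgattgttatcatcttga
H2-K1, brightest: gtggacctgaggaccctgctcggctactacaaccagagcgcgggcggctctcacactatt
H2-K1, remaining probe: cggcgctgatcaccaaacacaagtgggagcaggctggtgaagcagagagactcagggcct
The brighter H2-D1 probe read 1858.7 in KO and 1302.4 in WT, then 1829.0 in KO and 1859.7 in KO Tg. Its log2 ratio was 0.51 in KO over WT, -0.02 in KO over KO Tg and 0.51 in KO Tg over WT, so WT was again the low sample, below 2-fold. The dimmer one, which the files describe as a thymus leukemia antigen, gave -0.19 and -0.12. Endothelial markers, 5 of 5 above background, had a summed intensity of 6641 in WT against 9432 to 9994 in the other 3 channels, with 0 of them called. In KO over WT, 4 of them were above 0 and Pecam1 went the other way (-0.37). In KO Tg over WT all 5 were above 0. The part of these markers in the classical class I values was not tested.

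**Figure D4:**
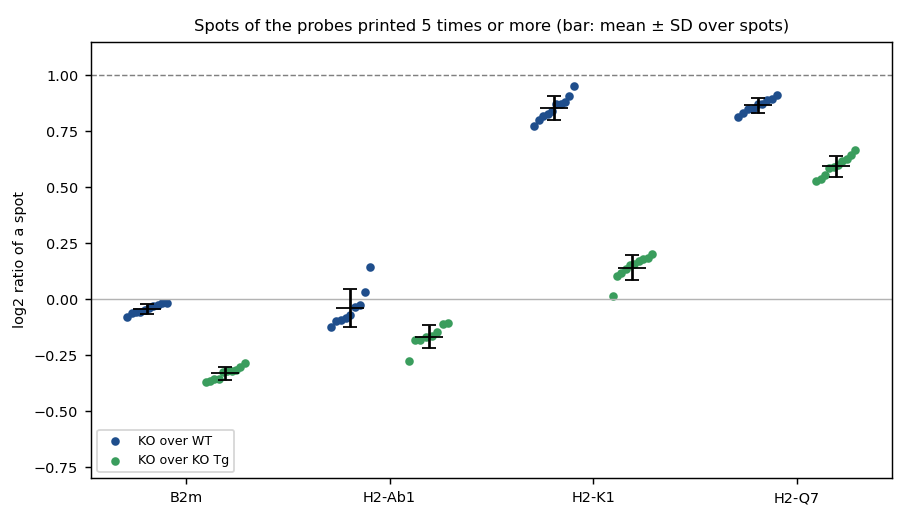
The log2 ratio of single spots of the 4 probes printed 5 times or more on each array, with the mean and SD over spots, for KO over WT and KO over KO Tg. H2-K1 and H2-Q7 lie above 0 in every spot of both arrays, and neither reaches the dashed 2-fold line.

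Among the class Ib genes only H2-T10 was called. H2-T10 and H2-T22 are near copies whose products are ligands of gamma delta T cells, and the RefSeq table used here classes H2-T10 as a transcribed pseudogene. The H2-T10 probe (NM_010395, chr17:34262303-34262362) read 724.9 in KO and 632.9 in WT, then 678.5 in KO and 316.8 in KO Tg. KO Tg was thus the low sample. The log2 ratio was 1.10 in KO over KO Tg, a 2.14-fold difference, and 0.20 in KO over WT, and KO Tg was 1.998-fold below WT, just short of the threshold. The files list an H2-T22 transcript for this probe too. The brighter H2-T22 probe, which was not called, went the other way, with 553.8 in KO and 627.9 in WT, then 576.3 in KO and 946.1 in KO Tg, or -0.18 and -0.72. The other H2-T22 probe stayed between 113.3 and 122.5.

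Probes that resemble each other gave similar ratios in some pairs and not in others. H2-Q7, the Qa-2 antigen, read 5411.2 in KO and 2971.5 in WT, then 5491.0 in KO and 3637.3 in KO Tg, and H2-T23, the Qa-1 antigen that presents leader peptides to NK cells, read 5356.7 and 3140.5, then 5990.5 and 4229.0. KO was the high sample on both arrays for both. The H2-Q7 log2 ratio was 0.86 ± 0.03 (SD over 9 spots) in KO over WT and 0.59 ± 0.05 (10 spots) in KO over KO Tg, and H2-T23 gave 0.77 and 0.50, a difference between the probes of 0.09 in each. H2-Q5 and the overlapping H2-Q10 probe differed from each other by 0.20 and 0.04 in the same comparisons and by 0.10 in KO Tg over WT, where both were higher in KO Tg, by 0.65 and 0.75. A pair of H2-Bl probes with 30 of 30 overlapping bases equal differed by 0.11, 0.30 and 0.49 in KO over WT, KO over KO Tg and KO Tg over WT, and the H2-Ab1 versions by 0.01, 0.51 and 0.27. With so many bases in common, overlapping probes cannot be taken as separate measurements of separate genes. Another H2-Q10 probe gave 0.68 and 0.80, so the probes of this gene spanned 1.20 in KO over KO Tg. The remaining class Ib probes ran from -0.60 to 0.53 in KO over WT, H2-T24 being the lowest. H2-Q1, with 3 probes, gave 0.27, 0.34 and 0.53 there and -0.27, 0.71 and -0.04 in KO over KO Tg. H2-D4 read 176.0 in KO and 244.1 in WT, then 191.4 in KO and 253.9 in KO Tg. H2-Q8, H2-T3 and the brighter H2-M3 probe stayed between 89.1 and 166.5. Markers of the choroid plexus, 5 of 5 above background, had a summed intensity of 18578 in KO against 9856 in WT and 17261 against 10454 in KO Tg. Of these, 2 were called higher in KO over WT and 1 in KO over KO Tg. Folr1 went the other way in KO over WT (-0.81) and was called lower in KO Tg over WT (-1.10). The part of these markers in the H2-Q7 and H2-T23 values was not tested.

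Probes of the same gene often differed. Of 10 genes with more than 1 probe above background in all channels, 6 had probes of both signs in KO over WT, 6 in KO over KO Tg and 5 in KO Tg over WT. The median range between the probes of a gene was 0.49, 0.58 and 0.65 on the log2 scale. Between both KO channels it was 0.25, with both signs in 7 of the 10.

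No partner of class I was called. B2m, the light chain, read 14357.3 in KO and 14792.3 in WT, then 12339.8 in KO and 15524.6 in KO Tg, at a probe printed 10 times. Its ratio was -0.04 ± 0.02 in KO over WT and -0.33 ± 0.03 in KO over KO Tg (SD over 10 spots), and all 10 spots of each array were below 0. Without loess these ratios were -0.57 to -0.42 and -0.87 to -0.68. The B2m values were from -0.43 to -0.33 in KO over KO Tg over the 3 probes, one of them from a clone that the files do not classify. Tap1 was dim, between 107.3 and 115.2, and Tap2 read 753.5, 593.1, 672.8 and 676.3 in KO, WT, KO and KO Tg, with log2 ratios of 0.35 and -0.01. Tapbp, tapasin, was saturated in KO Tg at its brighter probe, where KO over WT was 0.22, and -0.51 to -0.35 without loess. Its other probe read 24653.2 in KO and 13710.1 in WT, then 13283.0 in KO and 9493.0 in KO Tg. That probe gave 0.85 in KO over WT, but both KO channels themselves differed by -0.89, a gap as wide as that value.

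Other genes of the pathway were chosen by name, and their calls stand beside 9.33%, 8.58% and 7.9% of all probes called in KO over WT, KO over KO Tg and KO Tg over WT. Of 8 class I pathway genes on the array (immunoproteasome subunits, chaperones and trimming enzymes), 0 were called in any comparison. Over the 3 comparisons Psmb9 (0.60, -0.25 and 0.60), Erap1 (0.67, 0.55 and -0.19) and Psmb8 (0.18, -0.56 and 0.34) differed most, KO Tg over WT being given last. Calr (0.51 and 0.45) and Canx (0.46 and 0.53) were higher in KO over WT and KO over KO Tg, and each was saturated in at least 1 channel. Of 10 class II pathway genes, 0 were called in KO over WT, and 1 higher and 1 lower in KO over KO Tg. The higher was Ifi30, a lysosomal thiol reductase, with 1801.6 in KO against 759.1 in KO Tg and a log2 ratio of 1.25. The lower was Ciita, the master regulator of class II transcription, with 113.5 against 262.0 and a log2 ratio of -1.21. Of 16 interferon pathway genes, 1 was called higher in KO over WT and in KO over KO Tg, which was Stat2 with 1.06 and 1.01 on the log2 scale, and 1 lower in KO Tg over WT, which was Ifit3 with -1.11. Their median log2 ratio was 0.25 in KO over WT, 0.04 in KO over KO Tg and 0.30 in KO Tg over WT. Of 9 T and B cell markers, 0 were called in any comparison. Markers of red cells differed widely. The summed intensity of 4 genes was 16804 in KO beside WT and 120703 in KO beside KO Tg, against 88497 in WT and 61714 in KO Tg. Between both KO channels only the globins differed widely, Hbb-b1, saturated in at least 1 channel, by 2.71 on the log2 scale. Alas2 and Slc4a1 differed by -0.08 and -0.07 there. Hba-a1, an alpha globin, differed by 4.04 on the log2 scale between both KO channels, and no H2 or antigen presentation probe by more than 0.89.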

How the data were processed

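For each array the authors deposited the spot file of Feature Extraction 9.5.3.1 (Agilent), with the mean and median background intensity of each spot and a log10 ratio of Cy5 over Cy3 corrected and dye-normalized by the software. The authors also deposited a table of log2 ratios of Cy3 over Cy5, with column medians of -0.0107 and -0.0086 here, whose making is not given in the sources used here; it matched the turned scanner ratio with a median absolute difference of 0.0059 and 0.0058 and served only as an alternative. Each array held 45018 spots, of which 43379 were no controls. Control spots took no part, nor did 375 and 300 outlier spots. Background was corrected by normexp with an offset of 50 (limma 3.58.1, R 4.3.3), and values were normalized by loess within and Aquantile between arrays, and averaged over the spots of a probe. The R package data.table, version 1.17.8, Python 3.11.15, numpy 2.4.6, pandas 2.3.3 and matplotlib 3.10.9 were also used. The steps were tested on simulated data. The KO channels had a median intensity of 338.2 and 336.1, the WT channel 363.8 and the KO Tg channel 385, above backgrounds whose medians ran from 39 to 44. The number of arrays limits the precision.

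Positions are those of the scanner files on mm7; 50 probes of the family lay on chromosome 17, 2 had no position, 4 had one in another form that was not used and 3 were on an unplaced contig. Names were checked against RefSeq of GRCm38.p6, in which 52 of the 63 accessions matched, 51 under the same symbol. Probe sequences are those of the scanner files. The genes and lists were chosen with earlier results of these data known. Named with values are every called probe, the brightest probe of the main class I and class II genes and their partners, and up to 4 leading genes of each other list; further probes were named after their values were seen. The marker lists also covered border macrophages and dendritic cells, of which 6 of 8 were read and 0 called in any comparison, and brain tissue, with 5 of 5 above background and 1 call, Syt1 lower in KO over KO Tg (-1.29). The alternatives were offset 0, median centring, no normalization, the scanner's and the deposited ratio, other filters, 1 probe for each gene, and for KO Tg over WT the difference of both arrays' ratios and quantile normalization.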

Additional observations from a re-analysis of the deposited data

How the results depend on the processing

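No paired analysis was possible because each comparison has 1 array and no test. Under every alternative run, H2-Ke6 lay between -2.06 and -1.82 in KO over WT and between -2.08 and -1.86 in KO Tg over WT, and H2-DMb2 between 1.61 and 2.16 in KO over WT. In KO over WT, 5 probes were called with the scanner's ratio and 5 with the deposited one, where 21.1% and 21.0% of all probes were called, and the additions were H2-Aa, H2-DMb1 and H2-T24. With offset 0, median centring or no normalization 3 were called, each time with H2-DMb1 added. In KO over KO Tg, 4 were called with offset 0, 4 with the scanner's ratio and 4 with the deposited one, beside 15.4%, 19.4% and 19.2% of all probes. H2-T10, H2-DMb2 and H2-T24 were called higher each time. The remaining call was H2-Q10, higher, with offset 0, and Cd74, lower, with the scanner's and the deposited ratio. Without normalization 2 were called in KO over KO Tg, Cd74 and H2-K1, both lower, and H2-T10 fell to 0.88. In KO Tg over WT, 4 were called with offset 0, beside 15.1% of all probes. Without normalization the median of the family moved to -0.17 in KO over WT and -0.28 in KO over KO Tg, that of all probes moved to -0.19 and -0.25, and 28.9% and 24.1% of the calls over all probes were higher in KO, against 52.6% and 55.0% with loess. Of 164 values of 13 named probes under the alternatives, 118 moved by less than the robust SD between both KO channels or kept their call, 37 moved by more without passing 2-fold in their direction, 8 passed it anew and 1 lost it. H2-Ea, above background in no channel, had no such value. The cause of these changes was not tested. Dim probes have folds compressed by the offset.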
